A study of Homo sapiens with 18 samples.

Results

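A set of 10 genes of the TNF superfamily were examined by symbol in the gene matrix among the 62754 genes listed, and all 10 passed the filter on low counts that left 15167 genes. They comprised 6 ligands, TNF, LTB (lymphotoxin beta), TNFSF13B (BAFF), TNFSF15 (TL1A), TNFSF9 (4-1BB ligand) and TNFSF18 (GITR ligand), and 4 receptors, CD40, TNFRSF1A (TNF receptor 1), TNFRSF1B (TNF receptor 2) and TNFRSF9 (4-1BB). TRAIL and its receptors were not part of the set. The cells were EA.hy926, an established human endothelial line made by fusing umbilical vein endothelial cells with the A549 lung carcinoma line. Mock cells received the transfection reagent alone, siNT cells a non-targeting siRNA at 10 nM, and siELMO1 cells a pool of siRNAs against ELMO1 at 10 nM. RNA was taken 48 h after transfection and overnight culture in low serum (0 h), or after 24 h more with poly(I:C), a synthetic double-stranded RNA, at 1 μg/ml (24 h). Each of the 6 groups had 3 libraries, 18 in all, and there were no unstimulated cells at 24 h, so time in culture and poly(I:C) cannot be told apart in a comparison of 24 h with 0 h.

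TNF superfamily ligands are mostly type II membrane proteins that act as trimers at the cell surface or after shedding, and their receptors recruit TRAF adaptors or death-domain adaptors to switch on NF-κB, kinase cascades or cell death. TNF binds TNFRSF1A, which is present on most cells, and TNFRSF1B, which is more restricted. In endothelium, TNF and CD40 signalling are known for inducing adhesion molecules and chemokines, and TNFSF15 is known as an endothelial cytokine that restrains vessel growth.

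The regulatory sequences are shown because members that share a direction after poly(I:C) can be read beside the letters at their start sites. Windows covered the 250 bases before the start of each gene's most counted transcript, read 5′ to 3′ on the gene's strand from GRCh38, and 12386 protein-coding genes gave the background. The NF-κB consensus (on either strand) was in the window of LTB, CD40 and TNFRSF9 and in 6.22% of all windows. The interferon-response letters GAAANNGAAA (either strand) were in the windows of TNFSF13B, TNFSF9 and TNFRSF1B and in 2.80% of all windows. The AP-1 letters TGANTCA (either strand, the match reading alike on both) were in the window of TNFRSF9 and in 3.79% of all windows. TATAAA (either strand) was in the windows of TNF, TNFSF15 and TNFSF9 and in 5.19% of all. It ended at position −24 in TNF, −25 in TNFSF9 and −236 in TNFSF15, counted back from the transcript start. The windows of TNFSF18 and TNFRSF1A held none of these letters. The NF-κB match of LTB is on the strand opposite the gene. The NF-κB matches of TNFRSF9 on the 2 strands overlap. In LTB, TNFSF13B, CD40, TNFRSF1A, TNFRSF1B and TNFRSF9 the window also covers 30 to 94 bases that are exon of other transcripts. Stretches of 30 bases around the matches are printed with the match in capitals.
LTB, NF-κB, chr6:31582492-31582521, minus strand: aggggtgtgcGGAAAGTCCCagccaggtgt
CD40, NF-κB, chr20:46118162-46118191, plus strand: gaatgttctgGGGAAACTCCtgcgcggtga
TNFRSF9, NF-κB, chr1:7940894-7940923, minus strand: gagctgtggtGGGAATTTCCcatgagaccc
TNFRSF9, AP-1, chr1:7940865-7940894, minus strand: ccgcccctggcTGAGTCAccgcactcctgt
TNFSF13B, interferon-response letters, chr13:108269637-108269666, plus strand: tacaaaaactGAAAGTGAAAtgaggaagac
TNFSF9, interferon-response letters, chr19:6530822-6530851, plus strand: tggaaggccgGAAACGGAAAggagagcgaa
TNFRSF1B, interferon-response letters on the other strand, chr1:12166961-12166990, plus strand: tggcccgctggggcgcgggcTTTCGCTTTC
TNF, TATAAA, chr6:31575524-31575553, plus strand: gccccagggacaTATAAAggcagttgttgg
These matches end at positions −78 for LTB, −133 for CD40, −65 and −38 for TNFRSF9, −62 for TNFSF13B, −185 for TNFSF9, −1 for TNFRSF1B and −24 for TNF, counted back from the transcript start. They describe the letters of the windows only.

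TNF had the largest log2 fold change between siELMO1 and siNT at 24 h among the members, and TNFSF15 the highest CPM of the ligands in siELMO1, so their whole windows are given. Neither held the exact NF-κB, interferon-response or AP-1 letters searched for. Sites that depart from those letters were not searched for. TNFSF15 is printed for the start at 114806039 on chromosome 9, whose transcript held 97.7 to 99.5% of the gene's estimated transcript counts in every library.
TNF, chr6:31575315-31575564, plus strand: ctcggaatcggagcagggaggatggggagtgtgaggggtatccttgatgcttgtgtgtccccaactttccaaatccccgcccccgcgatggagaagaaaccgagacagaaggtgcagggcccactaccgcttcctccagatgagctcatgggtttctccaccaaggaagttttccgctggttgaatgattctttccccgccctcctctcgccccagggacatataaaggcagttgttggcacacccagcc
TNFSF15, chr9:114806040-114806289, minus strand: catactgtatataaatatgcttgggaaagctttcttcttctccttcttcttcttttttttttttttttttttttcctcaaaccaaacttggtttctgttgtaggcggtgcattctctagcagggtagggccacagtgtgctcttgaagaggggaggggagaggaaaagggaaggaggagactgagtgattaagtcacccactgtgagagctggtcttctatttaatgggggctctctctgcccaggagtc
TNF was also the member whose 3′ UTR held the AU-rich nonamer ATTTATTTA, the letters bound by mRNA decay factors such as ZFP36. It held 3 copies in 799 bases, the other 9 members held 0, and 8.28% of 11811 coding genes held at least 1. The stretch with the copies runs from base 466 to 495 of the 3′ UTR, with runs of the nonamer, which overlap, in capitals.
TNF, 3′ UTR: tttattATTTATTTAttATTTATTTATTTA

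Levels are CPM, counts scaled to the library total, after TMM scaling, a factor per library that offsets differences in composition, given as mean ± SD with n = 3 libraries. Libraries held 40.4 to 73.9 M estimated counts, and 3 counts, taken as the most that a count of 0 allows, came to 0.0383 to 0.0752 CPM. Such limits cover counting error only, and would be higher if a read pair gave more than 1 estimated count, which the sources used here do not settle. A difference was called at a Benjamini-Hochberg adjusted p under 0.05 in edgeR's quasi-likelihood test over 15167 genes, since a permutation test of 3 against 3 libraries cannot go below p = 0.10. The targeted gene, ELMO1, had levels of 0.340 ± 0.0686 CPM (0 h) and 0.267 ± 0.104 CPM (24 h) in siELMO1, below every library of Mock (3.02 ± 0.0288 and 2.32 ± 0.737 CPM) and of siNT (2.94 ± 0.339 and 3.31 ± 0.307 CPM). Of 12 endothelial markers 11 were at 1 CPM or more in every group, CLDN5 being the exception, and their summed level was 2829 to 3431 CPM in the siELMO1 libraries and 1610 to 2416 CPM in the others. Of 8 leukocyte markers 1 reached 1 CPM in each group, with CD3E, MS4A1 and SPI1 under 0.1 CPM in every group. Their summed level was 4.59 to 7.68 CPM in siELMO1 at 24 h and 1.62 to 3.78 CPM in the other groups, and its part in the results was not tested. Of 8 epithelial markers 3 or 4 reached 1 CPM, with CDH1, NKX2-1 and SFTPB under 0.1 CPM in every group. The summed level of the epithelial markers was 1516 to 2224 CPM in the 0 h libraries and 842 to 1314 CPM in the 24 h libraries. Its part in the results was not tested. Of 6 fibroblast markers 0 reached 1 CPM. The library siELMO1 0 h replicate 1 stood apart from the other two of its group, with a chi-square per gene of 70.9 and 79.1 against them where they differed by 10.2 from each other. Mitochondrial genes took 1.86% of its counts and 4.02% and 3.95% of those of replicates 2 and 3, against 1.31 to 2.42% in the other groups. Counts of members that rest on it are given with and without it.

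**Figure D1:**
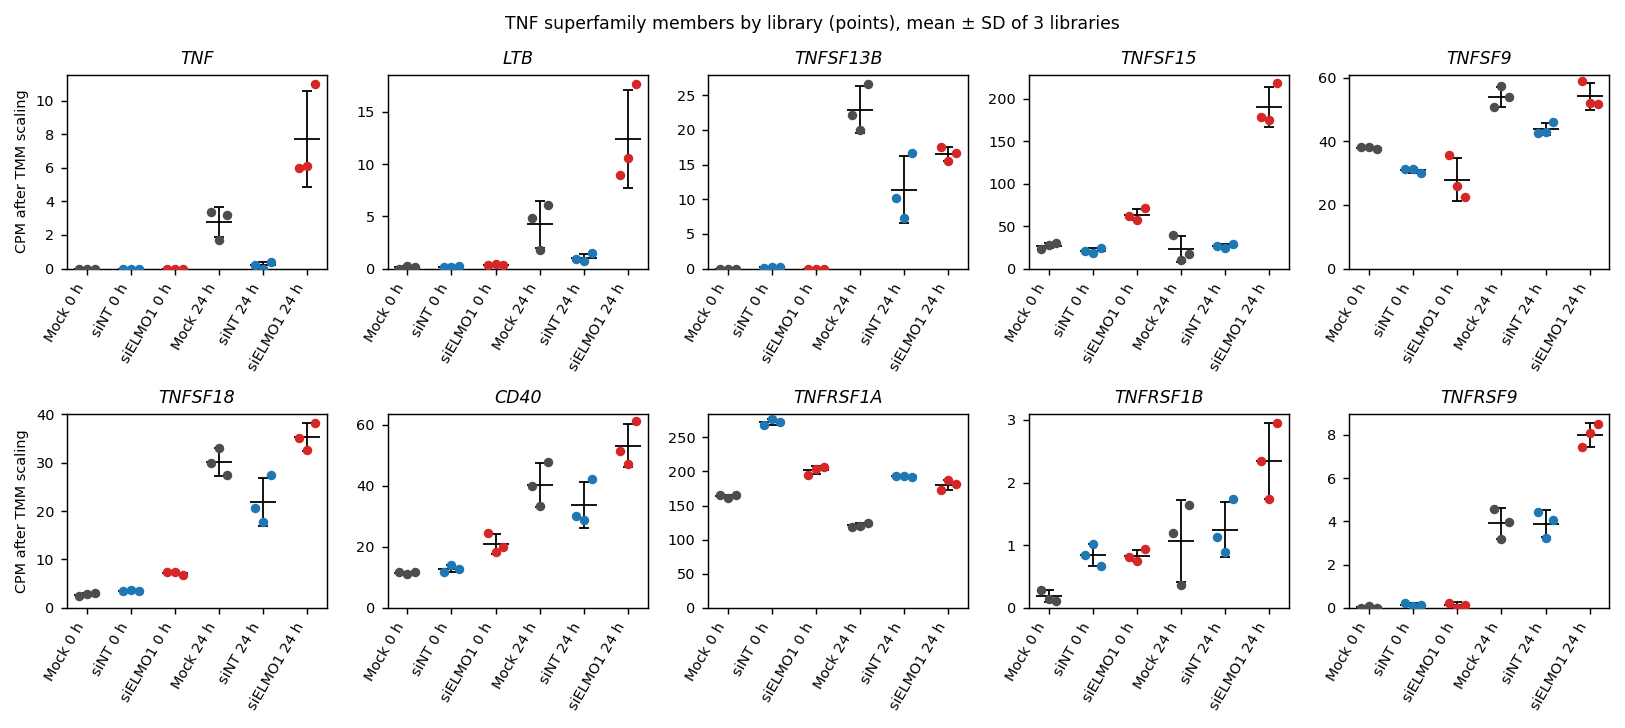
CPM after TMM scaling (y axis, from 0, a scale for each gene) of the 10 members in each of the 18 libraries (points, replicates 1 to 3 from left to right) by group (x axis), with the mean and SD of 3 libraries as black lines. TNF, LTB, TNFSF13B and TNFRSF9 were near 0 in all 0 h groups, and TNFSF15 stood highest in the 3 siELMO1 libraries at 24 h, at 174 to 218 CPM.

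After poly(I:C) TNFSF9, TNFSF18 and CD40 rose in every transfection and TNFRSF1A fell in each. TNFRSF1B rose in Mock and siELMO1, and TNFSF15 in siELMO1. The other members, TNF, LTB, TNFSF13B and TNFRSF9, were called higher in each transfection. They passed the filter on low counts only through 24 h libraries, so the filter favoured a rise in this comparison. For TNF these were libraries of Mock and siELMO1, since siNT at 24 h reached at most 0.402 CPM. With TNF, LTB, TNFSF13B and TNFRSF9 included, in Mock 8 of 10 members were higher and 1 lower at 24 h than at 0 h, where 30.7% of all genes tested were higher and 29.6% lower. In siNT, 7 were higher and 1 lower, against 28.6% and 25.2% of all genes. In siELMO1, 9 were higher and 1 lower, against 28% and 26.9% of all genes, and these counts were the same without siELMO1 0 h replicate 1. Nothing is read from these counts, since they hold members whose rise the filter favoured. Of the calls in Mock, 50.9% were higher genes, and 37.9% when scaled by library totals, where the median log2 fold change of all genes was −0.115.

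TNF (GRCh38 chromosome 6 from 31575565 to 31578336, plus strand), the founding cytokine of the family, had 0 counts in all 9 libraries at 0 h. At 24 h it was at 3.37, 1.72 and 3.22 CPM in Mock, at 0.210, 0 and 0.402 CPM in siNT and at 5.98, 6.10 and 11.0 CPM in siELMO1. The 3 groups at 24 h did not overlap, and siNT lay lowest, with 11, 0 and 23 counts in its libraries. Set against 3 counts at 0 h, TNF was 66.6-fold higher in Mock, 4.41-fold higher in siNT and 131-fold higher in siELMO1. The siNT libraries overlapped with 0 h, since replicate 2 had no count. All 3 rises passed the test (adjusted p = 1.56e-05, 0.00621 and 6.46e-06, edgeR), but the rise in siNT did not with limma-voom (adjusted p = 0.121). At 24 h the log2 fold change was 5.22 (SE 0.695) for siELMO1 against siNT (adjusted p = 6.34e-05, edgeR) and −3.74 (SE 0.676) for siNT against Mock (adjusted p = 0.000694, edgeR). Since TNF passed the filter on low counts through Mock and siELMO1 libraries of 24 h, nothing is read from these 2 calls. For siELMO1 against Mock the log2 fold change was 1.47 (SE 0.555), with an adjusted p of 0.0504 by edgeR. It passed in 12 of 26 alternatives, with adjusted p from 0.000719 by limma-voom to 0.36 by DESeq2. No difference between the responses could be fitted for TNF, since all 0 h groups were at 0.

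LTB (chromosome 6 from 31580525 to 31582522, minus strand), which forms a membrane heterotrimer with lymphotoxin alpha and binds LTBR, stayed under 0.43 CPM in every library at 0 h, where it held 0 to 26 counts. At 24 h it was at 4.83, 1.74 and 6.11 CPM in Mock, at 0.878, 0.714 and 1.47 CPM in siNT and at 8.91, 10.6 and 17.7 CPM in siELMO1. Its groups at 24 h did not overlap and had the same order as those of TNF. The log2 fold change with poly(I:C) was 5.19 (SE 0.599) in Mock, 2.42 (SE 0.579) in siNT and 5.11 (SE 0.554) in siELMO1 (adjusted p = 7.24e-07, 0.00186 and 4.26e-07, edgeR), and in siNT it did not pass with limma-voom (adjusted p = 0.0761). At 24 h siELMO1 was above siNT by 3.60 (SE 0.496) and above Mock by 1.55 (SE 0.447) on the log2 scale (adjusted p = 1.05e-05 and 0.0091, edgeR). The second of these calls was lost without siELMO1 24 h replicate 3, at 1.21 (adjusted p = 0.0629). In siNT LTB was below Mock at 24 h, by −2.04 on the log2 scale (SE 0.479, adjusted p = 0.00177, edgeR). The response was larger in siELMO1 than in siNT by 2.69 (SE 0.809, adjusted p = 0.0154, edgeR) and smaller in siNT than in Mock, by −2.77 (SE 0.861, adjusted p = 0.0205, edgeR). Without siNT 0 h replicate 3 neither difference in response passed, at 2.41 (adjusted p = 0.0618) and −2.49 (adjusted p = 0.0719), and neither passed with limma-voom (adjusted p = 0.159 and 0.147).

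TNFSF13B (chromosome 13 from 108251240 to 108308484, plus strand), the B cell survival factor BAFF, had 0 counts in the 6 libraries of Mock and siELMO1 at 0 h and 6, 13 and 15 counts in siNT. After 24 h of poly(I:C) it was at 22.1, 19.99 and 26.7 CPM in Mock, at 10.2, 7.30 and 16.7 CPM in siNT and at 17.6, 15.5 and 16.7 CPM in siELMO1. Every 24 h library lay above every 0 h library, the Mock group above both siRNA groups. Set against 3 counts at 0 h, TNFSF13B was 552-fold higher at 24 h in Mock and 283-fold higher in siELMO1. Its log2 fold change in siNT, where it had counts at 0 h, was 6.01 (SE 0.351, adjusted p = 5.62e-09, edgeR). At 24 h siNT was below Mock by −1.01 on the log2 scale (SE 0.238, adjusted p = 0.00299, edgeR). For siELMO1 against Mock the difference was −0.47 (SE 0.234, adjusted p = 0.127, edgeR), and it passed in 3 of 26 alternatives. For siELMO1 against siNT it was 0.54 (SE 0.237, adjusted p = 0.0704, edgeR). The latter passed with limma-voom (adjusted p = 0.00851) and with the replicate block (adjusted p = 0.0174, edgeR). It also passed without siNT 24 h replicate 3, the highest siNT library, at 0.92 (adjusted p = 0.00158, edgeR). The level of TNFSF13B in siNT at 0 h, set against 3 counts, was 4.23-fold higher than in Mock and 3.00-fold higher than in siELMO1 (adjusted p = 0.000802 and 0.00124, edgeR). The second call was lost with limma-voom (adjusted p = 0.0602). Both folds are too high, since a read pair gave more than 1 estimated count on average. The annotation places a long non-coding RNA and an rRNA pseudogene within the gene, so a part of its counts may be theirs.

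TNFSF15 (chromosome 9 from 114784652 to 114806039, minus strand), which signals through the death-domain receptor TNFRSF25, was higher in siELMO1 than in both other transfections at both times. At 0 h it was at 23.4, 27.3 and 29.9 CPM in Mock, at 20.8, 18.9 and 23.9 CPM in siNT and at 61.9, 57.4 and 70.8 CPM in siELMO1. The 24 h libraries stood at 39.8, 10.4 and 17.3 CPM in Mock, at 26.4, 24.0 and 28.7 CPM in siNT and at 178, 174 and 218 CPM in siELMO1. The siELMO1 libraries lay above all others at each time, and of the Mock libraries at 24 h replicate 1 was highest. Against siNT the log2 fold change in siELMO1 was 1.58 (SE 0.292) at 0 h and 2.85 (SE 0.301) at 24 h (adjusted p = 0.000138 and 4.87e-07, edgeR). Against Mock it was 1.24 (SE 0.288) at 0 h and 3.09 (SE 0.305) at 24 h (adjusted p = 0.00162 and 2.96e-07, edgeR). TNFSF15 rose with poly(I:C) in siELMO1, by 1.59 on the log2 scale (SE 0.285, adjusted p = 0.000135, edgeR), and this was 1.57 without siELMO1 0 h replicate 1 (adjusted p = 0.00075). In siNT and Mock its log2 fold changes were 0.31 (adjusted p = 0.385) and −0.26 (adjusted p = 0.454, edgeR), but without Mock 24 h replicate 1 the value in Mock was −0.99 (adjusted p = 0.000162). The response in siELMO1 exceeded that in siNT by 1.27 (SE 0.405, adjusted p = 0.0213, edgeR) and that in Mock by 1.85 (SE 0.406, adjusted p = 0.00243, edgeR), and the first did not pass without siNT 0 h replicate 3, at 1.17 (adjusted p = 0.0516).

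TNFSF9 (chromosome 19 from 6531026 to 6535924, plus strand), the ligand of TNFRSF9, moved little. At 0 h it was at 38.2, 38.1 and 37.4 CPM in Mock, at 31.4, 31.2 and 29.99 CPM in siNT and at 35.6, 25.8 and 22.4 CPM in siELMO1, with siELMO1 0 h replicate 1 the highest of its group. Its 24 h libraries stood at 50.8, 57.2 and 53.8 CPM in Mock, at 42.7, 42.8 and 45.9 CPM in siNT and at 59.0, 51.9 and 51.6 CPM in siELMO1. All 24 h libraries of a transfection lay above its 0 h libraries. The log2 fold change with poly(I:C) was 0.51 (SE 0.111) in Mock, 0.51 (SE 0.112) in siNT and 0.95 (SE 0.113) in siELMO1 (adjusted p = 0.000705, 0.000984 and 1.32e-06, edgeR). Without siELMO1 0 h replicate 1 the last was 1.17 (adjusted p = 1.13e-09). Its response in siELMO1 was larger than in siNT and in Mock by 0.44 each (adjusted p = 0.0376 and 0.0452, edgeR), and by 0.67 and 0.66 without that library (adjusted p = 4.26e-05 and 5.87e-05). With other single libraries left out these 2 differences often missed the threshold, with adjusted p up to 0.0979 and 0.114, both without siELMO1 24 h replicate 1. At 24 h siELMO1 was above siNT by 0.31 (SE 0.111, adjusted p = 0.0277, edgeR) and siNT below Mock by −0.30 (SE 0.111, adjusted p = 0.0323, edgeR). The first call was lost without siNT 24 h replicate 1 or 2 or siELMO1 24 h replicate 1 (adjusted p = 0.0768, 0.0758 and 0.119), the second without Mock 24 h replicate 2 or 3 or siNT 24 h replicate 1 or 2 (adjusted p = 0.108, 0.0635, 0.0876 and 0.0865).

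TNFSF18 (chromosome 1 from 173039202 to 173050941, minus strand), known for its expression on endothelium and for costimulating T cells through GITR, rose in every transfection. At 0 h it was at 2.46, 2.78 and 2.96 CPM in Mock, at 3.43, 3.71 and 3.47 CPM in siNT and at 7.45, 7.50 and 6.84 CPM in siELMO1. At 24 h it was at 29.8, 33.1 and 27.5 CPM in Mock, at 20.5, 17.7 and 27.4 CPM in siNT and at 35.1, 32.6 and 38.3 CPM in siELMO1. The 3 groups were apart from each other at 0 h, and at 24 h siELMO1 overlapped with Mock but not with siNT. The log2 fold change with poly(I:C) was 3.46 (SE 0.137) in Mock, 2.63 (SE 0.133) in siNT and 2.28 (SE 0.128) in siELMO1 (adjusted p = 3.68e-13, 2.38e-11 and 6.67e-11, edgeR). Relative to Mock the response was smaller in siELMO1, by −1.18 (SE 0.180, adjusted p = 0.000107, edgeR), and in siNT, by −0.83 (SE 0.184, adjusted p = 0.0022, edgeR). In siELMO1 TNFSF18 was above siNT by 1.04 (SE 0.135) at 0 h and 0.69 (SE 0.120) at 24 h on the log2 scale (adjusted p = 2.65e-06 and 0.000113, edgeR). An antisense non-coding RNA overlaps the gene, and since use of the strand in counting is not given in the sources used here, reads of the pair cannot be told apart.

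**Figure D2:**
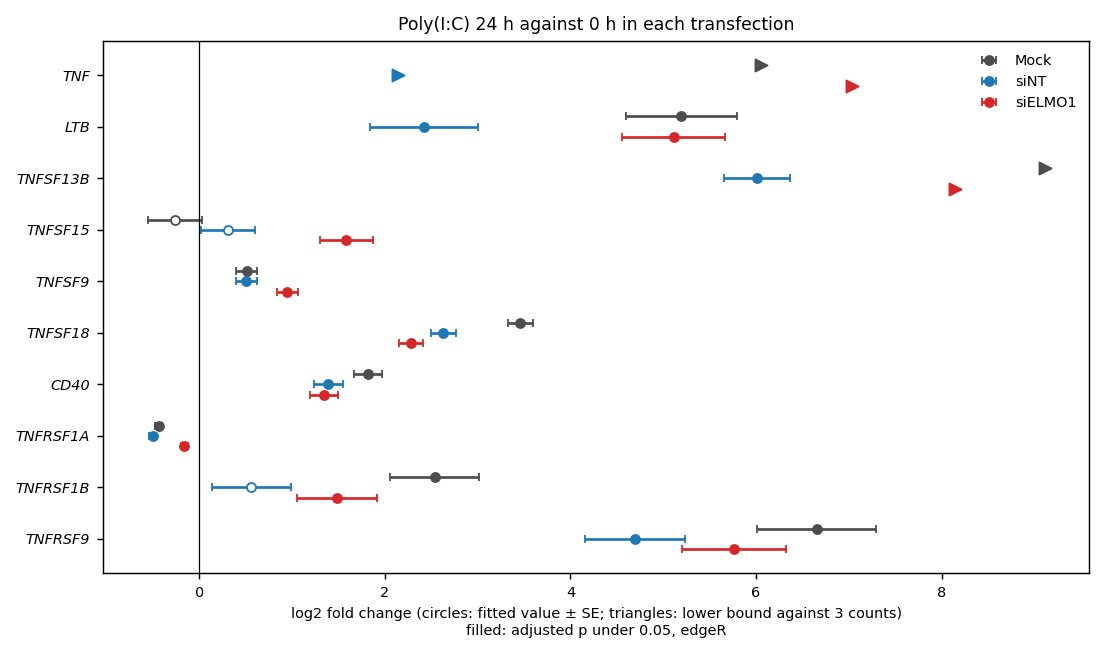
Log2 fold change of each member (rows) at 24 h against 0 h in Mock, siNT and siELMO1 (colours), as fitted by edgeR with its SE, filled where the adjusted p was under 0.05. Triangles, labelled lower bounds, are folds set against 3 counts for groups at 0 counts and are no strict bounds. TNFRSF1A lies left of 0 in all 3 transfections, and TNFSF15 is filled in siELMO1 alone, at 1.59.

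Among the receptors, CD40 (chromosome 20 from 46118271 to 46129863, plus strand), which binds CD40 ligand of activated T cells and platelets, was at 11.8, 11.0 and 11.6 CPM in Mock, at 11.9, 14.0 and 12.8 CPM in siNT and at 24.6, 18.2 and 19.8 CPM in siELMO1 at 0 h. With poly(I:C) for 24 h it was at 39.9, 33.4 and 47.8 CPM in Mock, at 30.1, 28.9 and 42.4 CPM in siNT and at 51.4, 47.2 and 61.1 CPM in siELMO1. All 24 h libraries lay above all 0 h libraries, and siELMO1 lay above siNT at both times. The log2 fold change with poly(I:C) was 1.82 (SE 0.155) in Mock, 1.39 (SE 0.154) in siNT and 1.35 (SE 0.151) in siELMO1 (adjusted p = 1.46e-08, 6.28e-07 and 6.82e-07, edgeR). No difference between the 3 responses passed, the largest being −0.47 (SE 0.213, adjusted p = 0.111) for siELMO1 against Mock. Against siNT, CD40 in siELMO1 was higher by 0.70 (SE 0.154) at 0 h and 0.66 (SE 0.148) at 24 h on the log2 scale (adjusted p = 0.000709 and 0.00124, edgeR). The first was 0.56 without siELMO1 0 h replicate 1 (adjusted p = 0.00642).

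TNFRSF1A (chromosome 12 from 6328757 to 6342114, minus strand), the death-domain receptor of TNF, was lower after poly(I:C) in every transfection. At 0 h it was at 165, 162 and 165 CPM in Mock, at 269, 276 and 273 CPM in siNT and at 195, 204 and 206 CPM in siELMO1. By 24 h it was at 118, 120 and 125 CPM in Mock, at 193, 193 and 192 CPM in siNT and at 173, 187 and 181 CPM in siELMO1. No pair of groups overlapped at either time. With poly(I:C) it fell by 0.44 (SE 0.0396) in Mock, by 0.50 (SE 0.0395) in siNT and by 0.16 (SE 0.0395) in siELMO1 on the log2 scale (adjusted p = 3.2e-08, 8.84e-09 and 0.00229, edgeR). The fall in siELMO1 was smaller than in siNT by 0.34 (SE 0.0558, adjusted p = 0.000128, edgeR) and smaller than in Mock by 0.28 (SE 0.0559, adjusted p = 0.0012, edgeR). It was also higher in siNT than in Mock, by 0.73 (SE 0.0395) at 0 h and 0.67 (SE 0.0397) at 24 h (adjusted p = 9.96e-11 and 6.93e-10, edgeR). At 0 h siELMO1 lay between those groups, with log2 fold changes of 0.30 against Mock and −0.44 against siNT (adjusted p = 6.26e-06 and 2.75e-08, edgeR). At 24 h siELMO1 was below siNT by −0.10 (SE 0.0395, adjusted p = 0.0491, edgeR), a call lost in 14 of 18 fits that left out a library and in 5 of 8 other settings, with adjusted p up to 0.257.

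TNFRSF1B (chromosome 1 from 12166991 to 12209228, plus strand), the TNF receptor without a death domain, was scarce. At 0 h it was at 0.290, 0.149 and 0.115 CPM in Mock, at 0.851, 1.02 and 0.673 CPM in siNT and at 0.815, 0.752 and 0.937 CPM in siELMO1, both siRNA groups lying above Mock. At 24 h it was at 1.20, 0.364 and 1.64 CPM in Mock, at 1.13, 0.892 and 1.73 CPM in siNT and at 2.35, 1.74 and 2.95 CPM in siELMO1. It was higher in siNT than in Mock at 0 h by 2.20 (SE 0.481) and in siELMO1 by 2.19 (SE 0.484) on the log2 scale (adjusted p = 0.000929 and 0.00108, edgeR). With poly(I:C) it rose in Mock by 2.54 (SE 0.482) and in siELMO1 by 1.48 (SE 0.431), and in siNT its log2 fold change was 0.56 (SE 0.428; adjusted p = 2e-04, 0.00735 and 0.284, edgeR). The response in siNT was smaller than in Mock by −1.97 (SE 0.640, adjusted p = 0.0257, edgeR), but 7 single libraries and limma-voom each ended that call, with adjusted p up to 0.0853, without Mock 24 h replicate 3. The annotation has 2 miRNA genes within it.

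TNFRSF9 (chromosome 1 from 7915871 to 7943165, minus strand), the activation-induced receptor 4-1BB, held 0 to 18 counts per library at 0 h. At 24 h it was at 4.58, 3.18 and 3.95 CPM in Mock, at 4.41, 3.21 and 4.07 CPM in siNT and at 7.42, 8.07 and 8.503 CPM in siELMO1. The Mock and siNT libraries at 24 h overlapped throughout, and the siELMO1 libraries lay above them. The log2 fold change with poly(I:C) was 6.66 (SE 0.641) in Mock, 4.70 (SE 0.539) in siNT and 5.76 (SE 0.558) in siELMO1 (adjusted p = 7.32e-08, 9.85e-07 and 1.02e-07, edgeR), and the last was 6.67 without siELMO1 0 h replicate 1. Without Mock 0 h replicate 2 the Mock libraries of 0 h held 0 counts, and the value in Mock was 10.87, which is no bound. Differences between these responses did not pass in edgeR with all libraries (adjusted p = 0.12 to 0.52). For siNT against Mock the difference of −1.96 was −2.01 with DESeq2 (adjusted p = 0.00995), and without Mock 0 h replicate 2 it was −6.18 (adjusted p = 0.00463, edgeR), while siELMO1 against Mock was then at −5.12 (adjusted p = 0.0261, edgeR). At 24 h the log2 fold change of siELMO1 was 1.04 (SE 0.413) against both siNT and Mock, with adjusted p of 0.0434 and 0.0511 (edgeR). Against Mock it passed in 10 of 26 alternatives, among them DESeq2 (adjusted p = 4.17e-05) and limma-voom (adjusted p = 0.000203). The call against siNT was lost in each of the 6 fits that left out a siNT or siELMO1 library of 24 h, with adjusted p up to 0.134 without siNT 24 h replicate 2, and without Mock 24 h replicate 1 or 3 (adjusted p = 0.0506 and 0.0529). A processed pseudogene on the other strand overlaps the gene.

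Between transfections at 24 h, siELMO1 against siNT sets the knockdown beside a control that also carried siRNA. The study reports massive death of siNT cells at this time, which siELMO1 cells resisted, and its part in these differences was not tested. Of the 10 members 7 were higher and 1 lower in siELMO1, where 26% of all genes tested were higher and 26.5% lower. TNF passed the filter on low counts through 24 h libraries of Mock and siELMO1, not of siNT. Nothing is thus read from its part in counts that involve siNT. LTB, TNFSF15, TNFSF18 and CD40 were called higher in siELMO1 than in siNT under all 26 alternatives. TNF was too, but nothing is read from that call for the same reason. The calls of TNFSF9, TNFRSF9 and TNFRSF1A were not kept under all. The count was 5 without filter on low counts and with siNT 24 h replicate 1, siNT 24 h replicate 2 or siELMO1 24 h replicate 1 left out. Against Mock 5 members were higher and 0 lower in siELMO1, beside 21.6% and 22% of all genes. By log2 fold change these were TNFSF15, LTB, TNFRSF1B, TNFRSF1A and CD40. CD40 (0.40, adjusted p = 0.0362) and TNFRSF1B (1.13, adjusted p = 0.0381, edgeR) were not called without Mock 24 h replicate 2 (adjusted p = 0.174 and 0.136) or siELMO1 24 h replicate 3 (adjusted p = 0.162 and 0.126). The count of members was 2 without siELMO1 24 h replicate 3, 3 without Mock 24 h replicate 1 or 2 or siELMO1 24 h replicate 1, and 8 without siNT 24 h replicate 3. In siNT against Mock 1 member, TNFRSF1A, was higher and 5 were lower, TNF, LTB, TNFSF13B, TNFSF18 and TNFSF9, beside 25.2% and 24.9% of all genes. In these bulk libraries fewer cells making a transcript and less transcript per cell cannot be told apart.

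**Figure D3:**
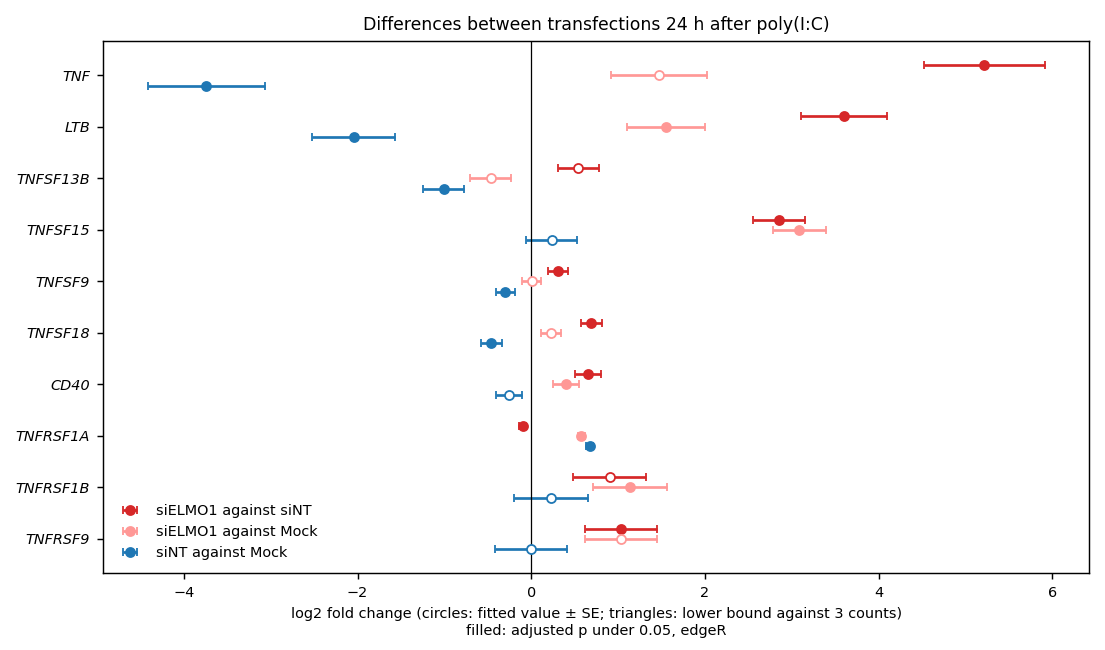
Log2 fold change of each member (rows) between transfections at 24 h (colours), fitted by edgeR with its SE, filled where the adjusted p was under 0.05. TNF, at 5.22, LTB, at 3.60, and TNFSF15, at 2.85, lie farthest right for siELMO1 against siNT, and TNF, at −3.74, farthest left for siNT against Mock.

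Before poly(I:C), in siELMO1 against siNT 3 members were higher, TNFSF15, TNFSF18 and CD40, and 2 lower, TNFSF13B and TNFRSF1A, beside 31.3% and 31.3% of all genes, shares too near those of the members to read anything from. Without siELMO1 0 h replicate 1 TNFSF9 was also lower, by −0.36 on the log2 scale (adjusted p = 0.000456, edgeR), where with it the value was −0.14 (adjusted p = 0.303). In siELMO1 against Mock 5 were higher, TNFSF15, TNFSF18, CD40, TNFRSF1A and TNFRSF1B, and 1, TNFSF9, lower, beside 27.9% and 22.4% of all genes, and the counts were the same without that library. Higher genes were 55.5% of the calls in that comparison, and 43.9% with library totals. TNFSF9 fell by 0.43 on the log2 scale against Mock (SE 0.112, adjusted p = 0.0037, edgeR), and by 0.65 without siELMO1 0 h replicate 1 (adjusted p = 1.29e-06). In siNT against Mock 4 were higher, TNFSF13B, TNFSF18, TNFRSF1A and TNFRSF1B, and TNFSF9 was lower, beside 27.6% and 24% of all genes. The calls of TNFSF18 (0.37, adjusted p = 0.0361, edgeR) and TNFSF9 (−0.30, adjusted p = 0.0344, edgeR) depended on single libraries: the first was lost without any of the 6 libraries compared, with adjusted p up to 0.19 without Mock 0 h replicate 1, and the second without Mock 0 h replicate 1 or any siNT 0 h library, with adjusted p up to 0.0923 without siNT 0 h replicate 3.

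**Figure D4:**
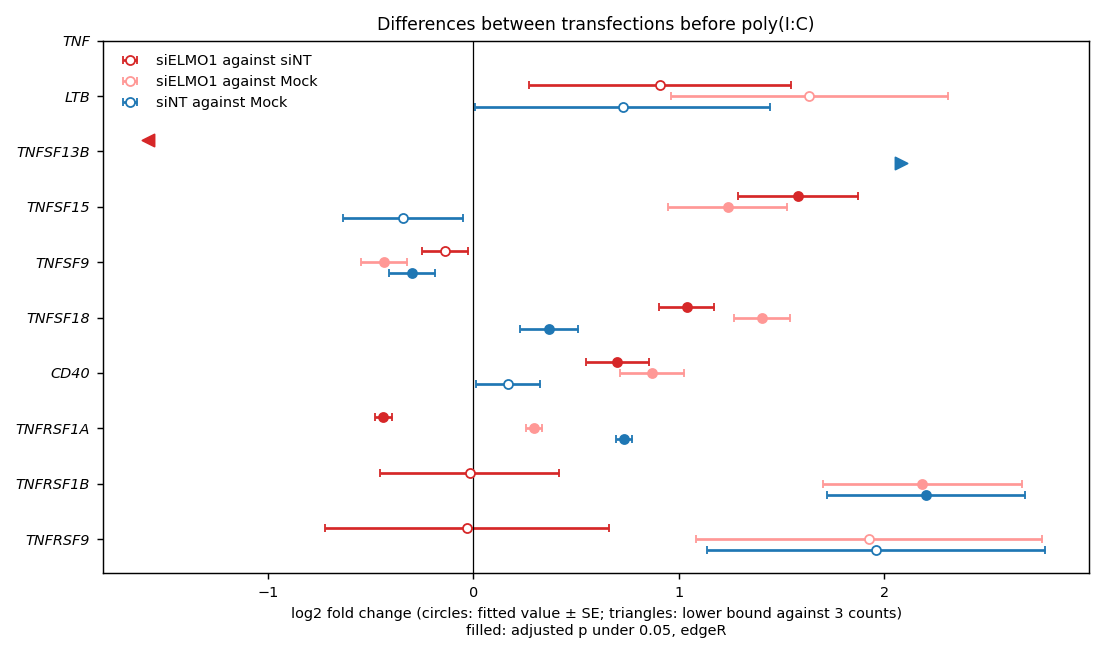
Log2 fold change of each member (rows) between transfections at 0 h (colours), fitted by edgeR with its SE, filled where the adjusted p was under 0.05. Triangles, labelled lower bounds, are folds set against 3 counts and are no strict bounds. TNF, at 0 counts in all 3 groups, has no value. TNFSF15, TNFSF18 and CD40 lie right of 0 for siELMO1 against siNT, at 1.58, 1.04 and 0.70.

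Responses to poly(I:C), the log2 fold changes from 0 h to 24 h, differed for 5 members between siELMO1 and siNT, with the difference above 0 for each, beside 16.7% of all genes above 0 and 17.8% below. These were LTB, TNFSF15, TNFSF9, TNFRSF1A and TNFSF13B, and the value of TNFSF13B rests on 0 counts in siELMO1 at 0 h and did not pass with limma-voom (adjusted p = 0.0575). LTB and TNFSF13B passed the filter on low counts only through 24 h libraries, so nothing is read from their part in the counts of responses. Without siELMO1 0 h replicate 1 the count was 5, and 4 for siELMO1 against Mock. For siELMO1 against Mock the difference was above 0 for 3, TNFSF15, TNFSF9 and TNFRSF1A, and below 0 for 1, TNFSF18, beside 13.8% and 14.6%. For TNFRSF1A, which fell in each transfection, a difference above 0 is a smaller fall. For siNT against Mock it was called above 0 for 0 members and below 0 for 4, LTB, TNFSF13B, TNFSF18 and TNFRSF1B, beside 14.9% and 16%. No member was called above 0 there by DESeq2 or limma-voom either, and none at an unadjusted p under 0.05 by edgeR, but without Mock 24 h replicate 1 TNFSF15 was, at 1.30 (adjusted p = 0.000543, edgeR). Higher genes were 48.6% of the calls for siELMO1 against Mock and 48.3% for siNT against Mock, and 60.3% and 64.7% with library totals. These comparisons share libraries, each pair of them having a transfection in common.

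Per length, in TPM (abundance scaled by transcript length and library total) summed over each gene's transcripts, TNFRSF1A was first in all 6 groups, at 126 ± 4.38 TPM in Mock at 24 h to 287 ± 2.92 TPM in siNT at 0 h. TNFSF9 came second in all groups, from 39.9 ± 11.4 to 76.9 ± 5.92 TPM, followed by CD40, from 17.2 ± 0.725 to 73.8 ± 11.4 TPM. Libraries of TNFSF9 and CD40 overlapped in siELMO1 at 0 h and in siNT and siELMO1 at 24 h, so these neighbours were not apart there. In siELMO1 at 24 h TNFSF15 followed at 67.8 ± 9.30 TPM, overlapping with CD40, then LTB at 30.1 ± 10.8 and TNFSF18 at 29.9 ± 2.71 TPM, which overlapped. TNFSF15 was at 7.84 ± 5.44 TPM in Mock and 9.21 ± 0.891 TPM in siNT at that time. The TNF ligand reached 10.7 ± 4.08 TPM in siELMO1, 3.73 ± 1.27 in Mock and 0.278 ± 0.275 in siNT, while TNFRSF1B was at 0.656 ± 0.402 to 1.48 ± 0.398 TPM at 24 h. By transcript, TNFSF9 and TNFSF18 counts lay all in 1 annotated transcript, as did those of TNF in Mock and siELMO1 at 24 h, and those of CD40 were divided mainly between CD40-202, with 36.4 to 62.0% in a library, and CD40-201, with 14.8 to 42.0%. LTB counts in siELMO1 at 24 h were divided between LTB-210, LTB-211 and LTB-212, the last a retained-intron form with 10.7 to 31.2%. With each gene's most abundant transcript alone, 20 of 60 levels moved by more than their SD. CD40 then lay below TNFSF15 in Mock at 0 h (7.02 against 9.86 TPM) and in siELMO1 at 0 h (15.3 against 22.0 TPM) and 24 h (36.2 against 66.6 TPM). In siNT at 0 h it stayed above TNFSF15 (7.92 against 7.30 TPM).

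Partners of the members were present to different degrees. LTBR, the receptor of LTB, was at 92.2 to 144 CPM in all libraries, with log2 fold changes with poly(I:C) of 0.10 in Mock and 0.27 in siNT (adjusted p = 0.0368 and 2.19e-05, edgeR) and 0.03 in siELMO1 (adjusted p = 0.495). TNFRSF25, the receptor of TNFSF15, was at 5.02 to 10.9 CPM, and its log2 fold change for siELMO1 against siNT at 24 h was −0.10 (adjusted p = 0.69, edgeR). The receptors of TNFSF18 and TNFSF13B were at or near the limit: TNFRSF18 (GITR) and TNFRSF13B had 0 counts in every library, TNFRSF17 was at 0.276 CPM or less and TNFRSF13C at 0.45 CPM or less. CD40LG, the ligand of CD40, had 0 counts in every library, and LTA, the partner of LTB, was at 1.46 CPM or less. These partners were named for their roles, whatever their values.

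Of 11 other ligands 5 were tested and of 21 other receptors 9. Of all genes, 30.7% were higher and 29.6% lower with poly(I:C) in Mock, 28.6% and 25.2% in siNT and 28% and 26.9% in siELMO1, and no test set these lists apart from other genes. With poly(I:C) 2 of the 5 ligands were higher in Mock and 3 in each of the siRNA groups, with 0 lower. CD70 rose in siELMO1 by 1.18 on the log2 scale (adjusted p = 3.76e-10), LTA by 2.48 (adjusted p = 0.0147, edgeR). The 0 h level of TNFSF4 (OX40 ligand) was 1.25 ± 0.144 CPM with siELMO1 and 0.108 ± 0.0238 CPM with siNT, higher by 3.51 on the log2 scale (adjusted p = 5.18e-07, edgeR), with Mock between them at 0.572 ± 0.124 CPM. At 24 h TNFSF4 was still higher in siELMO1 than in siNT, by 1.67 (adjusted p = 0.000804, edgeR), as was TNFSF13 (APRIL), by 1.20 (adjusted p = 0.00293, edgeR). Of the 9 receptors 6 were higher and 1 lower with poly(I:C) in Mock, 5 and 1 in siNT and 4 and 1 in siELMO1. FAS, a death-domain receptor, rose in Mock by 1.09 (adjusted p = 8.05e-10, edgeR), and TNFRSF12A was lower in siELMO1 than in siNT at 0 h, by −1.04 (adjusted p = 1.24e-07, edgeR). For siELMO1 against siNT at 24 h 0 of the 9 receptors were higher and 3 lower, beside 26% and 26.5% of all genes.

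Adaptors, kinases and ubiquitin enzymes of TNF receptor signalling numbered 26, all tested. With poly(I:C) 18 were higher and 1 lower in Mock, beside 30.7% and 29.6% of all genes, 18 and 3 in siNT, beside 28.6% and 25.2%, and 17 and 1 in siELMO1, beside 28% and 26.9%. TRAF1, BIRC3 (cIAP2) and TNFAIP3 (A20), which are NF-κB targets that bind or restrain TNF receptor complexes, had the largest rises. TRAF1 went from 1.80 ± 0.0931 to 300 ± 24.5 CPM in Mock, from 4.47 ± 0.461 to 102 ± 13.8 CPM in siNT and from 1.47 ± 0.206 to 62.3 ± 14.1 CPM in siELMO1. The siELMO1 libraries thus lay lowest for TRAF1 at 24 h, below siNT by −0.71 (adjusted p = 0.0001) and below Mock by −2.27 (adjusted p = 4.31e-10, edgeR), where TNF and LTB lay highest. BIRC3 was at 160 ± 10.4 CPM in Mock, 92.9 ± 8.73 in siNT and 95.1 ± 12.4 in siELMO1 at 24 h, and TNFAIP3 at 532 ± 31.3, 316 ± 13.0 and 426 ± 26.2 CPM. At 0 h BIRC3, TRAF1 and MAP3K14 (NIK, a kinase of non-canonical NF-κB signalling) were higher in siNT than in Mock, by 1.63, 1.31 and 1.27 on the log2 scale (adjusted p = 2.91e-07, 7.47e-06 and 1.07e-09, edgeR). They were lower in siELMO1 than in siNT, by −2.23, −1.57 and −1.50 (adjusted p = 1.41e-08, 1.35e-06 and 4.39e-11, edgeR).

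Of 6 genes for the shedding of TNF, 2 were higher and 1 lower with poly(I:C) in Mock, beside 30.7% and 29.6% of all genes, 2 and 2 in siNT, beside 28.6% and 25.2%, and 4 and 0 in siELMO1, beside 28% and 26.9%, and nothing is read from counts this small. RHBDF2 (iRhom2), which carries the TNF-cleaving protease ADAM17 to the surface, rose by 2.21, 1.88 and 1.59 on the log2 scale in Mock, siNT and siELMO1 (adjusted p = 5.15e-12, 1.09e-10 and 6.14e-10, edgeR). ADAM17 itself rose by 1.29 in Mock (adjusted p = 5.75e-13, edgeR). TIMP3, an inhibitor of ADAM17, was higher in siELMO1 than in siNT at 24 h, by 1.30 (adjusted p = 8.86e-11, edgeR). Of 8 genes for the decay of TNF mRNA, 5 were higher and 2 lower with poly(I:C) in Mock, 3 and 3 in siNT and 4 and 2 in siELMO1, beside the same shares of all genes, from which nothing is read either. ZC3H12A (regnase-1), an endonuclease of cytokine mRNAs, was at 38.7, 33.5 and 46.1 CPM in Mock, at 7.77, 7.32 and 10.3 CPM in siNT and at 48.05, 49.7 and 60.9 CPM in siELMO1 at 24 h. Its groups stood in the same order as those of TNF and LTB, with a log2 fold change of 2.64 for siELMO1 against siNT and −2.22 for siNT against Mock (adjusted p = 1.11e-09 and 1.12e-08, edgeR). ZFP36L2 differed in the same comparisons by 1.33 and −1.20 (adjusted p = 1.66e-08 and 7.2e-08, edgeR), while ZFP36 (tristetraprolin) was lower in siELMO1 than in Mock, by −1.03 (adjusted p = 6.08e-06, edgeR).

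**Figure D5:**
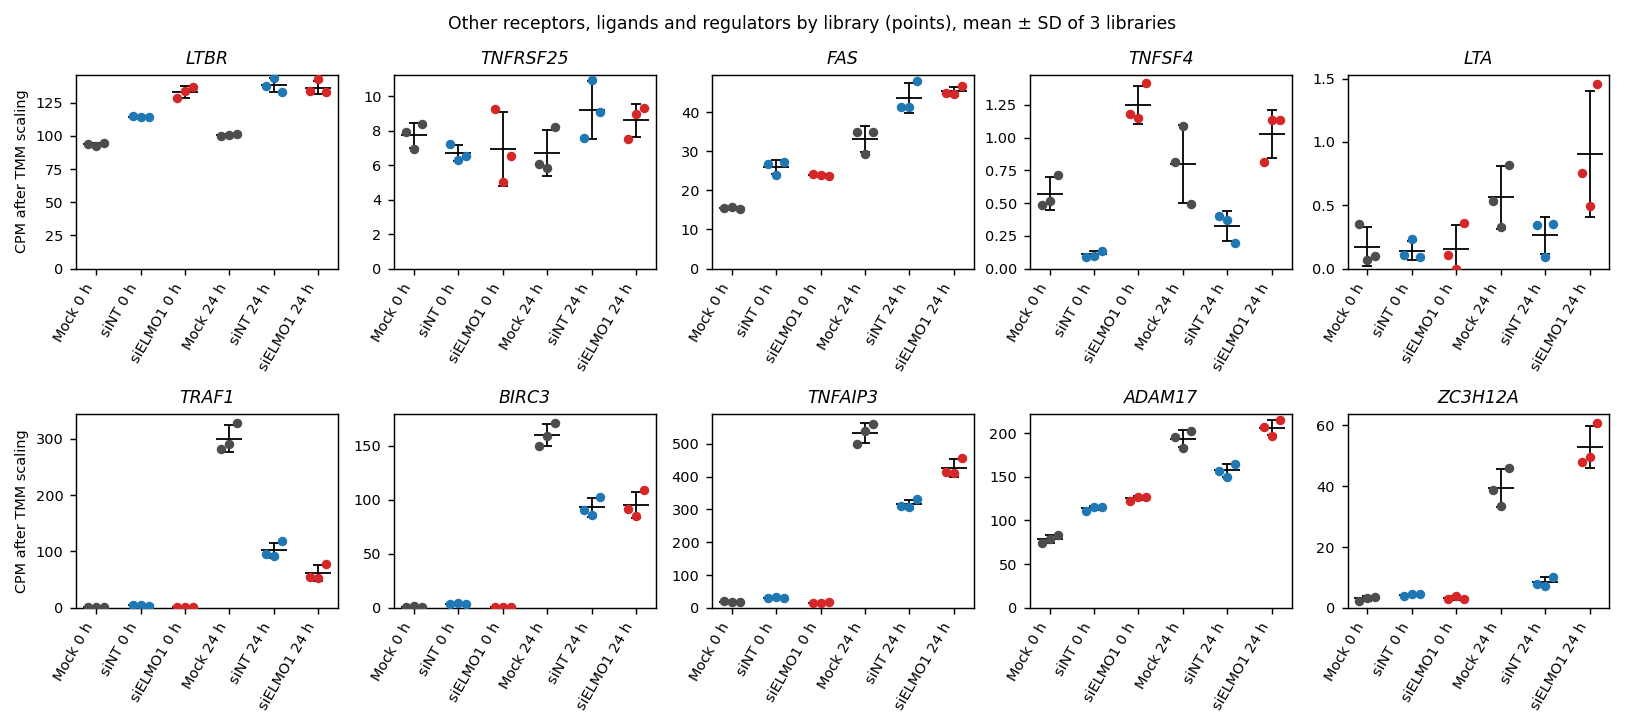
CPM after TMM scaling (y axis, from 0, a scale for each gene) of 10 further genes of the pathway in each library (points) by group (x axis), with the mean and SD of 3 libraries as black lines. TRAF1 at 24 h is lowest in siELMO1, at 62.3 CPM, while ZC3H12A is lowest in siNT, at 7.32 to 10.3 CPM.

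Across the 18 libraries, the genes most like each member were found by Pearson's r of log2 CPM among 12385 protein-coding genes, as a description in which all genes share libraries and groups. TNF was closest to TMEM123, USP28 and PLCG2 (r of 0.985, 0.983 and 0.981), and LTB to COL12A1, TXNIP and BACH1 (0.968, 0.966 and 0.964). TNFSF13B was closest to OAS1, NLRC5 and CTSS (0.995, 0.994 and 0.994), TNFSF18 to CEACAM1, ZNFX1 and ARHGEF40 (0.991, 0.987 and 0.987), and CD40 to SCARB2, NECTIN2 and ARHGEF40 (0.991, 0.988 and 0.986). TNFRSF9 was closest to SLFN12, CSF1 and ADGRE1 (0.977, 0.977 and 0.976). TNFSF15 was closest to BGN, NOMO1 and CUBN (0.954, 0.946 and 0.942), TNFSF9 to APH1A and the histone genes H4C14 and H4C15 (0.963, 0.960 and 0.956). TNFRSF1A was closest to ERRFI1, TRAM2 and DOCK3 (0.974, 0.967 and 0.966), and TNFRSF1B to DDX52, EFR3A and ARF3 (0.928, 0.922 and 0.914).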

How the data were processed

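Poly(A) RNA of 18 EA.hy926 libraries was prepared with a stranded mRNA kit. The authors deposited gene and transcript tables of estimated counts made with STAR and StringTie on GRCh38; the read length used to turn coverage into counts, and whether strand was used, are not given in the sources used here. Groups came from the sample labels, and columns were matched to samples by the library names in them. Genes with a total of 100 counts or more and 1 CPM or more in a library were tested with edgeR 4.0.16 (R 4.3.3), by the quasi-likelihood F-test with TMM factors in 1 fit of all 18 libraries, with Benjamini-Hochberg adjustment over all genes tested. CPM and TPM were computed here from the deposited estimated counts. Where a group had no library over 3 counts, folds were set against 3 counts. DESeq2 1.42.0, limma-voom (limma 3.58.1), other scalings and filters, a replicate block, fits restricted to the compared groups, and fits leaving out 1 library each were alternatives. The fits were tested on simulated data.

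The members and lists were chosen with earlier results of these data known. Genes outside the members were named where among the 3 largest changes of their list in a comparison (called, and more than 2-fold), or as the partner of a member. Same-numbered Mock and siNT libraries of 24 h deviated together, with r of 0.282, 0.332 and 0.252 over 9640 genes. The main fit did not pair them, and the replicate block changed no call between them. Same-numbered libraries of siELMO1 at 0 h and siNT at 24 h also deviated together (r of 0.223, 0.199 and 0.122), a pair not compared directly. With the block 5 members were still called in the response of siELMO1 against siNT. Libraries of unlike number were not correlated, so pairing by number is not established. The replicates are described by the study as biological, and how cultures were separated was not examined. Floors and bounds cover counting error only.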

Additional observations from a re-analysis of the deposited data

Results flagged for a closer look

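The poly(I:C) response of 13 member and comparison pairs differed between transfections by the interaction test of edgeR. Of all genes, 13.8 to 16.7% were called above 0 and 14.6 to 17.8% below 0 in these comparisons, which share libraries. LTB and TNFSF13B passed the filter on low counts only through 24 h libraries, so nothing is read from the count of 13. In siELMO1 against siNT the difference between log2 fold changes was above 0, for LTB at 2.69 (adjusted p = 0.0154), TNFSF13B at 6.97 (adjusted p = 0.00155), TNFSF15 at 1.27 (adjusted p = 0.0213), TNFSF9 at 0.44 (adjusted p = 0.0376) and TNFRSF1A at 0.34 (adjusted p = 0.000128). In siELMO1 against Mock it was above 0 for TNFSF15 at 1.85 (adjusted p = 0.00243), TNFSF9 at 0.44 (adjusted p = 0.0452) and TNFRSF1A at 0.28 (adjusted p = 0.0012), and below 0 for TNFSF18 at −1.18 (adjusted p = 0.000107). In siNT against Mock it was below 0 for LTB at −2.77 (adjusted p = 0.0205), TNFSF13B at −7.43 (adjusted p = 0.000441), TNFSF18 at −0.83 (adjusted p = 0.0022) and TNFRSF1B at −1.97 (adjusted p = 0.0257). The values of TNFSF13B rest on groups with 0 counts at 0 h and are no bounds. For TNFRSF1A a positive value is a smaller fall.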

How the results depend on the processing

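Of 112 member values 75 were called, and 56 of these were called under all 26 alternatives. Among the called values 0 changed sign. Of all genes tested, 13.8 to 31.3% were called higher and 14.6 to 31.3% lower in a comparison. Nothing is read from the 75, since the comparisons share libraries and hold rises that the filter favoured. The number of members called was 8 for siELMO1 against siNT at 24 h, 10 with limma-voom, 5 with no filter on low counts and 5 to 8 with a library left out. For siELMO1 against Mock at 24 h it was 5, 8 with limma-voom, 3 with no filter and 2 to 8 with a library left out. For siNT against Mock at 0 h it was 5, 3 with no filter and 3 to 6 with a library left out. For the response of siELMO1 against siNT it was 5, 3 with limma-voom and 2 to 5 with a library left out, the 2 being without siNT 0 h replicate 3, and for siNT against Mock it was 4, 2 with limma-voom and 3 to 5. With the replicate block the counts rose from 8 to 9 and from 5 to 7 for siELMO1 against siNT and Mock at 24 h and from 6 to 7 for siELMO1 against Mock at 0 h; the others did not move. The causes were not tested.

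Values near 0 that were not called changed sign. With library totals TNFSF9 was at −0.0139 for siELMO1 against Mock at 24 h and TNFRSF1A at 0.0224 for the response of siNT against Mock. TNFRSF9 for siNT against Mock at 24 h was at 0.00909 with limma-voom, 0.0228 with library totals, 0.00128 with filterByExpr and 0.00148 with the replicate block. TNFRSF1B for siELMO1 against siNT at 0 h was at 0.00802 with limma-voom. The response of TNFSF9 in siNT against Mock was at 0.00198 with DESeq2, 0.0808 with library totals, 0.00193 with DESeq2 size factors, 0.0051 with no filter and 0.0178 with only the groups compared. With a library left out, TNFSF15 ranged from −0.99 to 0.0829 with poly(I:C) in Mock and from −0.11 to 0.92 for siNT against Mock at 24 h. In the latter comparison TNFRSF1B ranged from −0.18 to 0.69 and TNFRSF9 from −0.13 to 0.12, and TNFSF9 from −0.0598 to 0.0517 for siELMO1 against Mock. For siELMO1 against siNT at 0 h TNFSF9 ranged from −0.36 to 0.000937, TNFRSF1B from −0.16 to 0.13 and TNFRSF9 from −0.94 to 0.41. Responses ranged from −0.16 to 0.15 for CD40 in siELMO1 against siNT, from −0.77 to 0.47 for LTB and −5.12 to 0.0144 for TNFRSF9 in siELMO1 against Mock, and from −0.0388 to 0.0411 for TNFSF9 in siNT against Mock.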
